A study of Homo sapiens with 7 samples.

Results

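Pol II peaks that also carry SPT5, TRIM28 and O-GlcNAc, but no O-GlcNAcase (OGA), made up 4910 of the 19336 RNA polymerase II (Pol II) peaks on chromosomes 1 to 22 (25.4%, 95% Wilson interval 24.8% to 26.0%). They were chosen by the positions of peaks in chromatin immunoprecipitation sequencing (ChIP-seq) of BJAB, an established line of human B cells from a Burkitt's lymphoma. A Pol II peak was counted when at least 1 bp of it was covered by a SPT5, a TRIM28 and an O-GlcNAc peak and no base of it by an OGA peak. The antibodies were 8WG16 for Pol II, RL2 for O-GlcNAc and 1 antibody each to SPT5, TRIM28 and OGA, the last labelled NCOAT. Each of the 5 targets had 1 library and 1 peak list from cells for which the labels give no treatment, and the mouse and rabbit IgG libraries were not analysed here. The number depends on the rule and on list length: 2930 Pol II peaks (15.2%) qualified with summits within 250 bp in place of overlap, and 562 (6.25%) with the Pol II, SPT5 and TRIM28 lists cut to the size of that of O-GlcNAc. With no replicates, no difference below could be tested across samples. The intervals cover counting error over peaks only, neighbouring peaks are not independent of each other, and the depth of each library is unknown.

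Shortly after it starts, Pol II halts at many genes in a promoter-proximal pause. SPT5, a subunit of the DSIF complex, binds the polymerase during this pause and stays with it in elongation once the kinase P-TEFb has acted. TRIM28, also named TIF1b or KAP1, is best known as the co-repressor of KRAB zinc finger proteins, and the title of the series lists it with SPT5 as a pausing factor. O-GlcNAc is a single sugar linked to serine and threonine in many proteins of nucleus and cytoplasm, the C-terminal repeats of Pol II among them. The enzyme OGT adds it and OGA takes it off. RL2 recognises the sugar on many proteins, so an O-GlcNAc peak does not name the protein that carries it.

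The steps of the rule removed Pol II peaks mainly at TRIM28 and at O-GlcNAc. SPT5 peaks lay at 95.5% of all Pol II peaks, TRIM28 peaks at 60.5%, O-GlcNAc peaks at 40.4% and OGA peaks at 6.11%. All of the 4910 carry the first 3 and none the last by construction. Of the 18462 Pol II peaks with SPT5, 11518 also had TRIM28, and 5459 of those had O-GlcNAc (47.4%). OGA then removed 549 (10.1%, interval 9.29% to 10.9%). Among Pol II peaks with SPT5 and TRIM28 but no O-GlcNAc, OGA was present at a share close to this, 558 of 6059 (9.21%, 8.51% to 9.96%). Where TRIM28 was missing and O-GlcNAc present, it lay at 46 of 2328 (1.98%, 1.48% to 2.63%). These values describe how the peaks were chosen. The OGA list is the shortest, with 2503 peaks on these chromosomes, so the lack of an OGA peak is a statement about that list.

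Few of the peaks sat at the edge of the rule as measured by bp of overlap. The smallest of the 3 overlaps had a median of 263 bp, and it was under 10 bp at 19 peaks (0.387%). Just inside lay the Pol II peak at chromosome 1, 26662720 to 26662978 (coordinates in hg19 throughout), which shared 1 bp with an O-GlcNAc peak. The peak at chromosome 15, 43882142 to 43882485, shared 1 bp with a TRIM28 peak. Just outside lay the peak at chromosome 19, 42784152 to 42784719, with a TRIM28 peak 2 bp away, and the peak at chromosome 7, 6388809 to 6389018, with an O-GlcNAc peak 2 bp away. The support for the calls was uneven between targets. TRIM28 had the lowest −log10 q of the 4 peaks at 3922 of the 4910 sites (79.9%), O-GlcNAc at 875 (17.8%), Pol II at 109 (2.22%) and SPT5 at 4 (0.0815%).

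The Pol II peaks with all 3 partners were high and wide. Their median fold enrichment, as the authors' peak list gives it, was 6.89 (quartiles 5.20 to 8.95), against 4.22 (3.14 to 6.39) at the 14426 other Pol II peaks. Single values ran from 1.74 to 24.7. The median width was 696 bp (quartiles 509 to 909 bp), against 436 bp (302 to 658 bp) at the others. The distributions overlapped: the lower quartile of height, 5.20, lay above the median of the others and below their upper quartile of 6.39. Peaks wider than 1 kb numbered 922 (18.8%, interval 17.7% to 19.9%), against 11.6% of all Pol II peaks. A wider peak has more bases on which an overlap can fall, and height and width moved with membership in these lists. Their part in it was not tested. When the Pol II, SPT5 and TRIM28 lists were reduced to as many peaks as O-GlcNAc has, those of highest −log10 p, the difference in median Pol II height turned to −0.285, against 2.66 with the full lists, and the difference in median width was 112.5 bp, against 260 bp.

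The share of Pol II peaks with the 3 partners climbed with Pol II height and then levelled off. In the lowest decile of Pol II fold enrichment it was 4.50% (87 of 1934 peaks), in the fifth decile 21.6%, in the eighth 43.5%, in the ninth 45.7% (interval 43.5% to 48.0%) and in the highest 43.3% (41.1% to 45.5%). The last 3 intervals overlapped. The partners differed in level and in how far they rose from the lowest to the highest decile. SPT5 was at 93.3% of peaks in the lowest decile and 99.6% in the highest, and TRIM28 at 44.8% and 77.6%. O-GlcNAc was at 10.3% in the lowest decile, 63.7% in the ninth and 60.4% in the highest. Pol II peaks with SPT5 and TRIM28 alone kept a narrower range, 23.01% to 33.2% of each decile, and those with SPT5 alone fell to 11.1% in the highest decile, against 45.5% in the lowest.

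**Figure D1:**
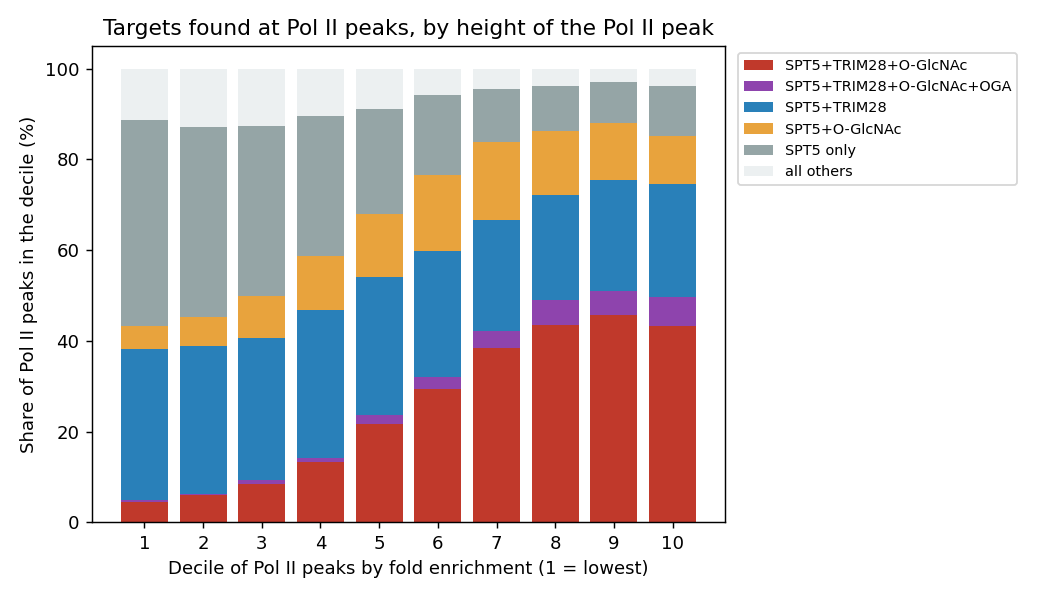
Share of Pol II peaks (%, vertical axis) that carry each combination of the other targets, in deciles of Pol II fold enrichment (horizontal axis, 1 lowest). The red bars, peaks with SPT5, TRIM28 and O-GlcNAc and no OGA, grow to 45.7% in the ninth decile, against 4.50% in the lowest; purple bars are peaks with all 5 targets.

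The Pol II peaks with all 5 targets had the higher medians of height and width, and the 3 groups lacking TRIM28, O-GlcNAc or both, and OGA, had lower ones than the sites. The 4910 had a median Pol II fold enrichment of 6.89 and a median width of 696 bp. The 549 Pol II peaks with all 5 targets had 7.36 and 798 bp, the 2282 with SPT5 and O-GlcNAc had 5.49 and 474 bp, the 5501 with SPT5 and TRIM28 had 4.46 and 507 bp, and the 4600 with SPT5 alone had 3.54 and 363 bp. Wider than 1 kb were 18.8% of the sites without OGA, against 31.9% of those with all 5 targets (interval 28.1% to 35.9%). No test across samples was possible for any of these differences.

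The partner peaks at these sites came from different parts of their own lists. The SPT5 peaks were among the highest of SPT5: their median fold enrichment was 9.19, above 90.7% of the SPT5 list, and their median −log10 q was 111. The TRIM28 peaks were low ones. Their median fold enrichment was 2.93, above 29.2% of the TRIM28 list, where the median of all peaks was 3.49. By −log10 q they stood in the middle, with a median of 7.19 at the 51.5th percentile of the list. The low fold enrichment was not particular to the sites. TRIM28 medians at Pol II peaks with SPT5 and TRIM28 alone, 3.05, and with all 5 targets, 3.32, were also below that of the list. O-GlcNAc peaks were near the middle of their list in fold enrichment, at a median of 3.90 and a list median of 3.87. In −log10 q they were somewhat above it, at 21.5 against 17.4. Much of that list consists of these same peaks, so the closeness is partly given. The sites took up 4812 distinct O-GlcNAc peaks, 53.5% of the O-GlcNAc list, but 12.3% of the TRIM28 list (5400 peaks) and 8.55% of the SPT5 list (4692 peaks). A SPT5 peak covered the whole Pol II peak at 76.0% of sites, whereas the TRIM28 peak lay wholly inside the Pol II peak at 61.9% and the O-GlcNAc peak at 58.4%. The highest overlapping peak was used where there were several, and TRIM28 had 2 or more peaks at 11.8% of sites.

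Among Pol II peaks with SPT5 and no OGA, both TRIM28 and O-GlcNAc peaks were somewhat lower where they met than where one lacked the other. TRIM28 had a median fold enrichment of 2.93 at the sites with O-GlcNAc (quartiles 2.53 to 3.42), against 3.05 at Pol II peaks with SPT5 and TRIM28 and no O-GlcNAc (2.61 to 3.59). O-GlcNAc had 3.90 at the sites with TRIM28 (2.97 to 5.29), against 4.44 at Pol II peaks with SPT5 and O-GlcNAc and no TRIM28 (3.38 to 5.97). The quartiles overlap widely in both cases. The order was the same in 10 of 10 deciles of Pol II height for TRIM28 and in 10 of 10 for O-GlcNAc. In deciles of Pol II width it held throughout for TRIM28. For O-GlcNAc it was reversed in the second decile of width, at 5.28 at the sites against 5.10. It held in the other deciles of width, but only just in the fourth, where both medians were 4.73. TRIM28 peaks were also lower at the sites without OGA, at 2.93, against 3.32 at those with OGA, in 10 of 10 deciles, which held 5 to 123 sites with OGA each. The 3.32 with OGA also lay above the 3.05 of the peaks without O-GlcNAc and OGA, but these groups differ in both targets. TRIM28 height at the 558 Pol II peaks with SPT5, TRIM28 and OGA but no O-GlcNAc is not given here. O-GlcNAc peaks were lower at the sites too, at 3.90, against 4.15 with all 5 targets, in 8 of 10 deciles of Pol II height. SPT5 had a median of 9.19 at the 4910 sites and 9.33 with all 5 targets. It was 6.42 with TRIM28 but no O-GlcNAc and 8.37 with O-GlcNAc but no TRIM28. At matched Pol II height SPT5 was higher at the sites than without O-GlcNAc in 9 of 10 deciles. It was higher than without TRIM28 in 4 of 10.

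**Figure D2:**
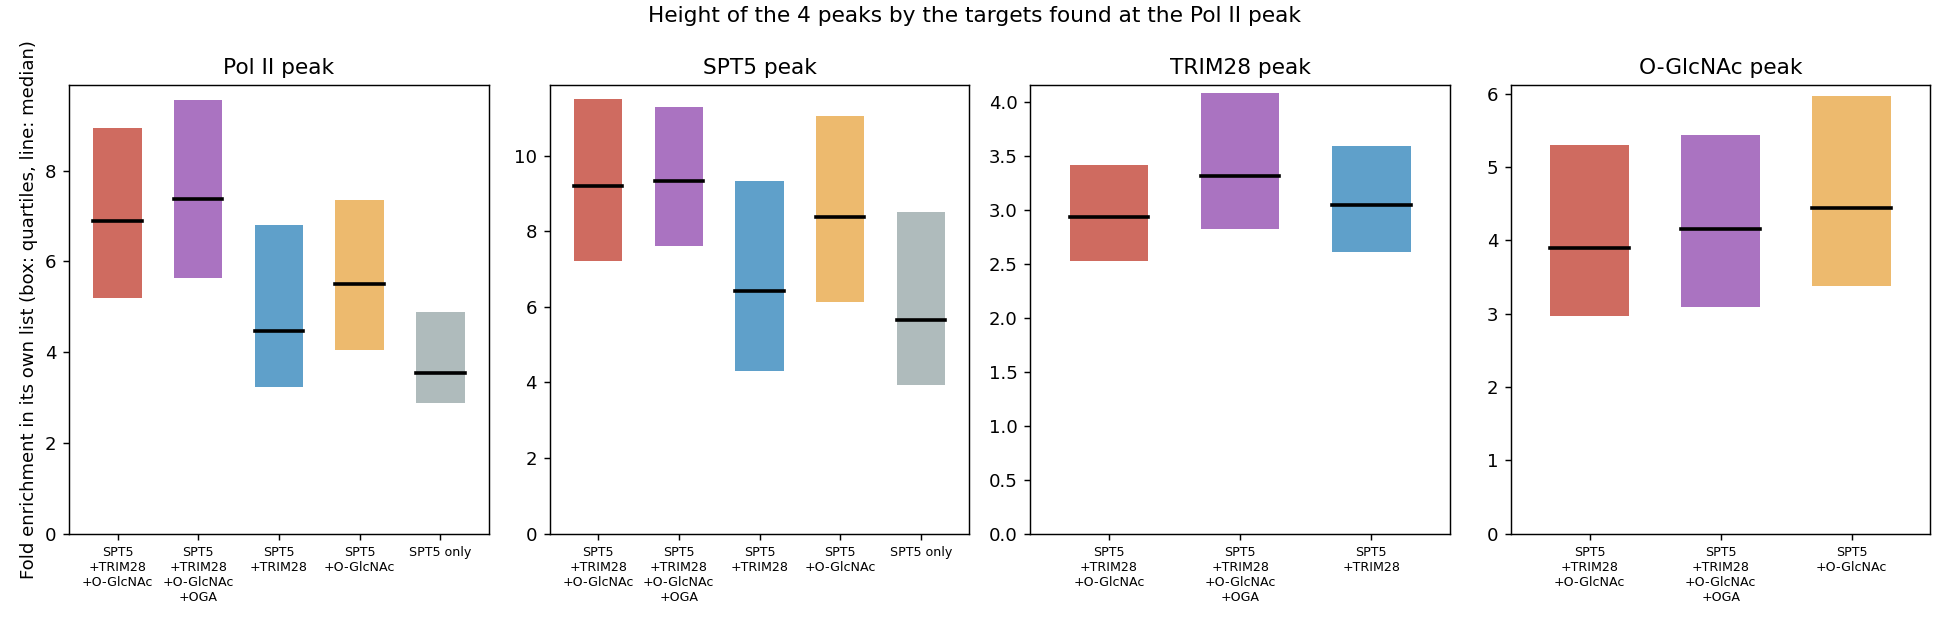
Fold enrichment of the Pol II, SPT5, TRIM28 and O-GlcNAc peak (vertical axes, each in its own list) at Pol II peaks grouped by the targets found there. Boxes span the quartiles and lines mark medians; in red, the 4910 sites without OGA have medians of 6.89, 9.19, 2.93 and 3.90.

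Across the 4910 sites the heights of Pol II and SPT5 went together, and those of O-GlcNAc did not follow them. Spearman's rho was 0.597 for Pol II and SPT5, 0.165 for Pol II and TRIM28, −0.104 for Pol II and O-GlcNAc and 0.0305 for TRIM28 and O-GlcNAc. These are descriptions over sites that share 1 library per target and its depth. Divided into 5 equal groups by Pol II height, the sites had median SPT5 fold enrichments of 6.52 in the lowest group and 11.95 in the highest. TRIM28 had 2.76 in the lowest group and 3.12 in the highest. O-GlcNAc had 4.19 in the lowest and 3.67 in the highest.

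Within the sites the 4 summits had a recurring layout. The SPT5 summit lay on the Pol II summit, at a median distance of 22 bp (95% order-statistic interval 21 to 23 bp), and 54.1% of SPT5 summits were within 25 bp. The TRIM28 summit lay at a median of 120.5 bp (114 to 127 bp), spread broadly, with 15.1% within 25 bp. The O-GlcNAc summit seldom lay on the Pol II summit: the median was 164 bp (160 to 167 bp), 3.65% lay within 25 bp, and 45.7% lay more than 100 and up to 200 bp away. TRIM28 and O-GlcNAc summits were a median of 120 bp apart (115 to 124 bp), and 24.3% were within 50 bp of each other. The TRIM28 summit was closer to the O-GlcNAc than to the Pol II summit at 52.8% of sites (interval 51.4% to 54.2%). Summit positions were not used to choose the sites, but overlap limits how far apart they can lie. One base was common to peaks of all 4 targets at 4708 sites (95.9%, 95.3% to 96.4%).

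These distances depended on Pol II height for SPT5 and TRIM28 and hardly for O-GlcNAc. In the lowest of the 5 groups by Pol II height the SPT5 summit was a median of 41 bp away (37 to 48 bp), and in the highest 14 bp (12 to 15 bp). The TRIM28 summit was 138.5 bp away in the lowest group (125 to 149 bp) and 89 bp in the highest (79 to 102 bp). The O-GlcNAc median was 166 bp in the lowest group (158 to 171 bp) and 163 bp in the highest (154 to 167 bp), with 163 to 163.5 bp in between. Without TRIM28 the O-GlcNAc summit had much the same offset: 160 bp (156 to 163 bp) at Pol II peaks with SPT5 and O-GlcNAc. With OGA it was 173 bp (162 to 183 bp). TRIM28 lay nearer to Pol II where O-GlcNAc was missing, at 95 bp (91 to 99 bp), and farther where OGA was present, at 160 bp (138 to 178 bp). The median Pol II widths had the same order: 507 bp without O-GlcNAc, 696 bp at the sites and 798 bp with OGA. The part of width in these distances was not tested.

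TRIM28 and O-GlcNAc summits fell on the same side of Pol II at 3660 of the 4884 sites where neither summit coincided with that of Pol II (74.9%, interval 73.7% to 76.1%), against 80.5% (77.0% to 83.6%) at Pol II peaks with all 5 targets. SPT5 and O-GlcNAc shared a side at 78.8% (77.7% to 80.0%), against 78.1% (76.3% to 79.7%) where TRIM28 was missing. In the sites, SPT5 and TRIM28 shared one at 69.1% (67.8% to 70.4%). That share was 62.0% (60.7% to 63.3%) where O-GlcNAc was missing and 72.4% (68.4% to 76.0%) with all 5 targets. Any offset from the Pol II summit counted as a side, and 54.1% of SPT5 summits in the sites lay within 25 bp of it. Sides and orders that involve SPT5 thus rest in part on small offsets. The share for TRIM28 and O-GlcNAc was 81.1% in the lowest of the 5 groups by Pol II height and 67.5% in the highest. Read in either direction along the chromosome, the commonest order was Pol II, SPT5, O-GlcNAc, TRIM28 at 1035 of the 4778 sites with 4 distinct positions (21.7%). Next came Pol II, SPT5, TRIM28, O-GlcNAc at 949 (19.9%) and TRIM28, Pol II, SPT5, O-GlcNAc at 671 (14.0%). The least common of the 12 orders, with O-GlcNAc, Pol II, TRIM28 and SPT5 in a row, was found at 72 (1.51%).

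The direction was read from the shape of the Pol II peak, since gene strand was not used here. A summit divides its peak into a longer and a shorter arm, with median lengths of 457.5 and 217 bp, and the longer arm took up a mean of 64.2% of the peak. The O-GlcNAc summit lay on the side of the longer arm at 67.0% of sites (interval 65.7% to 68.3%), TRIM28 at 64.8% and SPT5 at 64.2%, close to the length of the arm. At the 3436 sites with no other Pol II peak within 2 kb the shares were higher. There O-GlcNAc lay on the longer side at 74.4% (73.0% to 75.9%), TRIM28 at 68.7% (67.1% to 70.2%) and SPT5 at 69.3%, with the longer arm at 64.8% of the peak. At the 1420 such lone Pol II peaks with SPT5 and O-GlcNAc but no TRIM28, O-GlcNAc lay on the longer side at 64.4% (61.8% to 66.8%) with an arm of 63.0%. Over all peaks of that group, lone or not, O-GlcNAc lay there at 54.2% (52.2% to 56.3%) with an arm of 61.8%. At the 3259 lone peaks with SPT5 and TRIM28 but no O-GlcNAc, TRIM28 lay on the longer side at 62.9% (61.2% to 64.6%). SPT5 did so at 62.3% of them, with an arm of 62.8%. At the 360 lone peaks with all 5 targets the shares were close to those of the sites, 270 of 360 for O-GlcNAc (75%, 70.3% to 79.2%) and 68.6% for TRIM28 (63.6% to 73.2%).

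**Figure D3:**
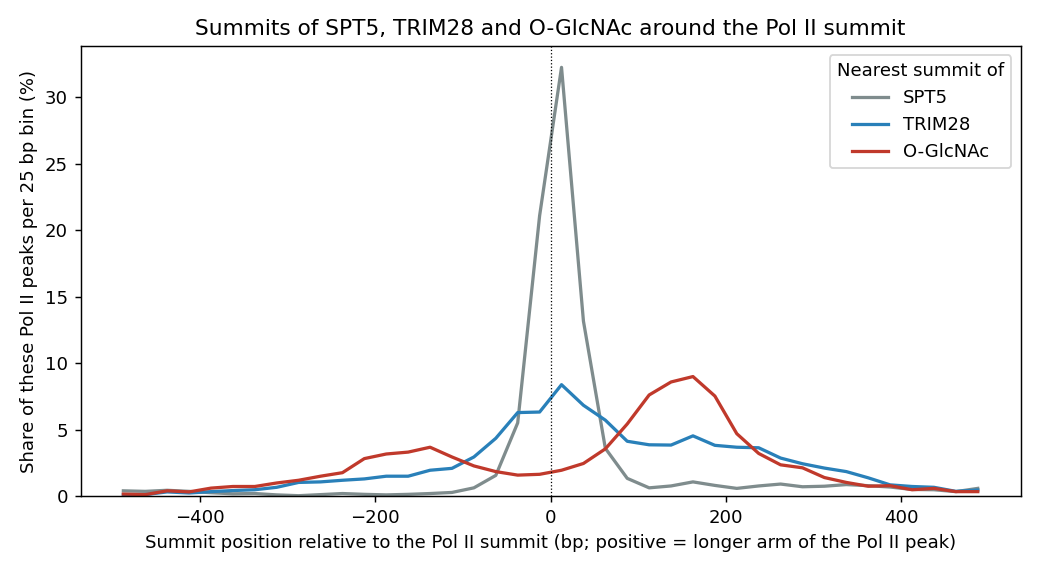
Position of the nearest SPT5, TRIM28 and O-GlcNAc summit relative to the Pol II summit (horizontal axis, bp, positive towards the longer arm of the Pol II peak) at the 4910 sites, as % of sites per bin (vertical axis). SPT5 is centred on Pol II, TRIM28 is broad, and O-GlcNAc has 2 humps on either side of a dip at the Pol II summit, with the larger on the longer arm; its median distance is 164 bp.

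At close pairs of Pol II peaks the O-GlcNAc and SPT5 summits lay mostly towards the neighbour, at the sites as in the similar groups. Another Pol II peak lay within 500 bp of 1201 of the 4910 sites (24.5%), a lower share than the 29.8% of all Pol II peaks. At these sites the O-GlcNAc summit lay on the side of the neighbour at 921 of 1200 (76.8%, interval 74.3% to 79.1%), SPT5 at 75.1% and TRIM28 at 64.3% (61.6% to 67.0%). With all 5 targets the shares were much like these: O-GlcNAc 71.1% (63.4% to 77.7%), SPT5 74.5% (67.1% to 80.8%) and TRIM28 68.4% (60.7% to 75.3%). Where O-GlcNAc was missing, the TRIM28 summit lay on the neighbour's side at 46.8% (44.3% to 49.4%) and the SPT5 summit at 66.3% (63.9% to 68.7%). At Pol II peaks with SPT5 alone, SPT5 lay there at 69.4% (67.3% to 71.5%). Where TRIM28 was missing, O-GlcNAc lay on that side at 83.8% (81.1% to 86.3%) and SPT5 at 79.3% (76.3% to 82.1%), and the intervals for SPT5 overlap. The neighbour was itself a peak with the 3 partners and no OGA at 520 of the 1201 (43.3%). In 251 cases, 1 O-GlcNAc peak covered parts of 2 such Pol II peaks, whose summits were a median of 539 bp apart, and its summit fell between them in 242 (96.4%, 93.3% to 98.1%). Of 160 TRIM28 peaks shared in this way 135 had the summit in between (84.4%, 78.0% to 89.2%), and of 242 SPT5 peaks 179 did (74.0%, 68.1% to 79.1%). A peak that spans 2 others holds the gap between them, so a summit there is partly given by its position. These pairs share their partner peaks and are not separate observations of them.

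The sites were spread over all 22 chromosomes in unequal shares. Chromosome 7 had the highest share, with 331 of its 1040 Pol II peaks (31.8%, interval 29.1% to 34.7%). Chromosome 20 had 169 of 541 (31.2%, 27.5% to 35.3%) and chromosome 19 had 423 of 1393 (30.4%, 28.01% to 32.8%). Chromosome 9, with 231 of 809 (28.6%, 25.5% to 31.8%), was the other one with an interval wholly above the share over all. The lowest shares were 119 of 714 on chromosome 8 (16.7%, 14.1% to 19.6%) and 75 of 366 on chromosome 13 (20.5%, 16.7% to 24.9%), against 25.4% over all. The partners behind these shares differed. On chromosome 7 TRIM28 lay at 71.0% of Pol II peaks, and on chromosome 8 at 44.4%, against 60.5% over all. On chromosome 19 TRIM28 was at 59.1% and O-GlcNAc at 56.8%, against 40.4% over all. Among Pol II peaks of the 5 highest deciles the sites made up 53.2% on chromosome 7 (48.6% to 57.8%) and 27.3% on chromosome 8 (22.9% to 32.2%), against 40.1% over all. When each list kept its peaks with a −log10 q of 5 or more, chromosome 19 fell to 20.9% (18.7% to 23.2%), next to 20.1% over all, while chromosome 7 stood at 29.4%. The copy number of the chromosomes in BJAB cells was not measured, and its part was not tested.

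**Figure D4:**
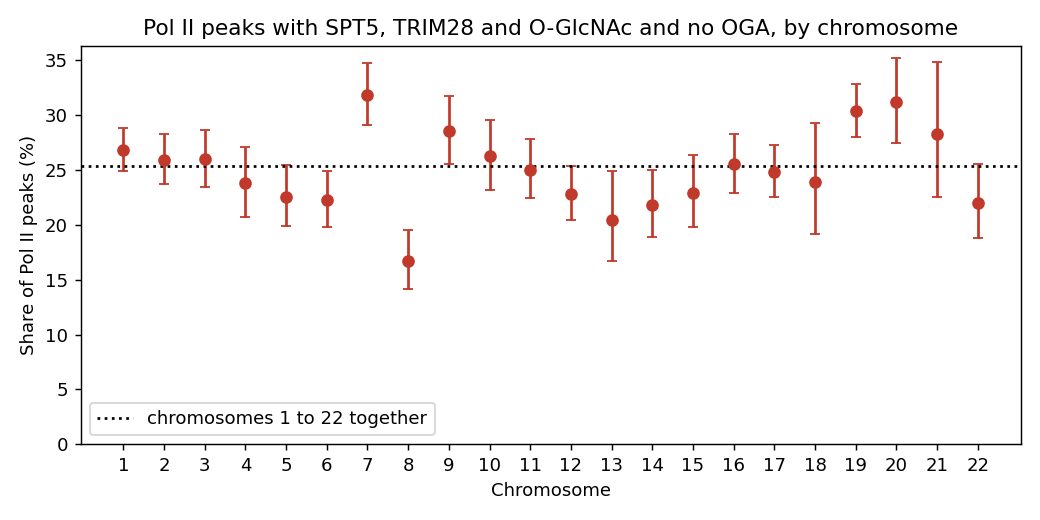
Share of the Pol II peaks of each chromosome (%, vertical axis) that carry SPT5, TRIM28 and O-GlcNAc and no OGA, with 95% Wilson intervals as bars. The dotted line is the share over chromosomes 1 to 22, 25.4%; the intervals of chromosomes 7, 9, 19 and 20 lie wholly above it, and chromosome 8 has the lowest share, 16.7%.

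Sites neighboured each other along the chromosomes, and Pol II peaks with SPT5 and O-GlcNAc neighboured sites at a share not far below. Of the Pol II peaks next to a site, 34.2% were sites too (3354 of 9803, interval 33.3% to 35.2%), against 31.6% (30.3% to 33.01%) of those next to a Pol II peak with SPT5 and O-GlcNAc, 29.0% (26.4% to 31.7%) next to one with all 5 targets, 21.8% next to one with SPT5 and TRIM28, 17.9% next to one with SPT5 alone and 25.4% next to any Pol II peak. Runs of 2 or more adjacent sites held 2749 of the 4910 (56.0%). Runs of 4 or more held 620 (12.6%). Runs of other groups are not given here. As 25.4% of all Pol II peaks are sites, many sites can be adjacent at that share alone, and these counts do not measure clustering. The median distance to the nearest other Pol II peak was 15355 bp, against 3823 bp at the other Pol II peaks. Of 2127 windows of 1 Mb with a Pol II peak, 1520 held a site, with a median of 2 sites each. The fullest window, 1 to 2 Mb on chromosome 19, held 24 sites among 62 Pol II peaks. The window at 73 to 74 Mb on chromosome 17 held 21 among 50, and that at 2 to 3 Mb on chromosome 16 held 20 among 60.

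The longest runs had 8 adjacent sites, and there were 2 of them. The first spanned 378 kb of chromosome 19, 40476584 to 40854853. Its Pol II fold enrichments, in order along the chromosome, were 4.13, 13.5, 15.0, 8.82, 4.88, 7.95, 5.40 and 5.50. The O-GlcNAc fold enrichments did not follow them: the highest Pol II peak had 2.68, and the first and lowest had 5.55. Each of the last 2 neighbouring pairs shared 1 O-GlcNAc peak, with fold enrichments of 3.92 and 2.13. The run and 20 kb on either side held 9 Pol II, 17 SPT5, 17 TRIM28, 7 O-GlcNAc and 1 OGA peak. The other run spanned 1891 kb of chromosome 20, 23338417 to 25229131. Its Pol II peaks ranged from 2.91 to 9.13 and its TRIM28 peaks from 1.78 to 3.20.

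**Figure D5:**
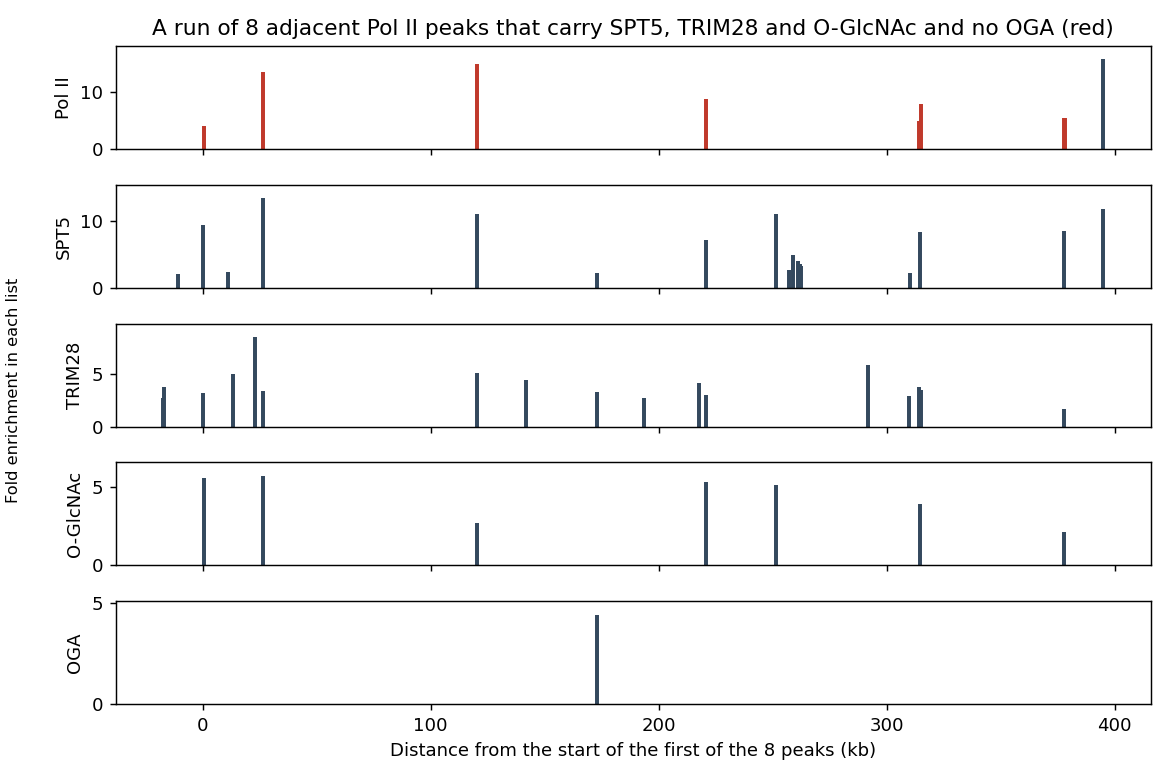
Peaks of the 5 targets along the run of 8 sites on chromosome 19 and 20 kb on either side (horizontal axis, distance along the region in kb), with the fold enrichment of each peak as its height. The 8 Pol II peaks of the run, with fold enrichments of 4.13 to 15.0, are marked in red, and the 1 OGA peak of the region lies between them.

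Single sites with high Pol II had TRIM28 above its median and a range of O-GlcNAc heights. The highest Pol II peak among the 4910, at chromosome 16, 4421683 to 4422273, had a Pol II fold enrichment of 24.7; its SPT5 peak reached 14.9, its TRIM28 peak 4.12 and its O-GlcNAc peak 2.99. Its SPT5, TRIM28 and O-GlcNAc summits lay 18, 7 and 75 bp from that of Pol II. Next in Pol II height came chromosome 20, 60640626 to 60641750 (21.6), chromosome 6, 163148474 to 163148935 (21.5), chromosome 19, 45754158 to 45754710 (20.8), and chromosome 14, 76126827 to 76127900 (20.3). In TRIM28 height these 5 sites ranged from 3.32 to 4.12, above the median of 2.93, and in O-GlcNAc height from 2.99 to 7.03, around the median of 3.90.

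The highest O-GlcNAc peaks lay at sites of low, middling and high Pol II. The site at chromosome 6, 131949062 to 131949456, had an O-GlcNAc fold enrichment of 15.1 and a Pol II fold enrichment of 6.16. The site at chromosome 14, 69657990 to 69658736, had 14.4 for O-GlcNAc and 4.06 for Pol II, and that at chromosome 19, 50083530 to 50083981, had 13.4 and 12.1. All 3 had TRIM28 peaks of 2.43 to 3.47. TRIM28 was at its highest, with fold enrichments of 10.9 at chromosome 1, 17230304 to 17232404, 10.9 at chromosome 5, 114880095 to 114880921, and 9.46 at chromosome 2, 9770570 to 9771276. O-GlcNAc fold enrichments at these sites were 2.63, 3.24 and 4.64 in the same order. Their nearest TRIM28 summits lay 300, 601 and 434 bp from Pol II, farther than the median of 120.5 bp. The site on chromosome 1 had 3 TRIM28 peaks, so its nearest summit need not be that of the highest peak.

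The highest SPT5 peaks sat on high Pol II peaks. The site at chromosome 17, 26903637 to 26904306, had a SPT5 fold enrichment of 25.2 and a Pol II fold enrichment of 11.3, that at chromosome 6, 122792710 to 122793300, had 24.6 and 12.5, and that at chromosome 4, 7104818 to 7105256, had 24.5 and 16.2. Their SPT5 summits were 12, 4 and 1 bp from the Pol II summit. The widest sites were 8954 bp at chromosome 7, 5564023 to 5572976, 5098 bp at chromosome 2, 232527128 to 232532225, and 4707 bp at chromosome 6, 30580502 to 30585208, with Pol II fold enrichments of 6.68 to 8.95. There the O-GlcNAc summits lay 126, 4033 and 256 bp from that of Pol II, so a peak of several kb can be counted for partners far from its summit.

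OGA was scarcer around the sites than around Pol II peaks with SPT5 and TRIM28 or with SPT5 alone. Around Pol II peaks with SPT5 and O-GlcNAc it was about as scarce as around the sites. The nearest OGA summit was a median of 225 kb away, against 237 kb at Pol II peaks with SPT5 and O-GlcNAc, 148 kb at those with SPT5 and TRIM28 and 162 kb at those with SPT5 alone. It lay within 10 kb at 4.44% of the sites (interval 3.90% to 5.05%), against 3.42% (2.75% to 4.25%), 11.5% (10.7% to 12.4%) and 12.6% (11.7% to 13.6%) in the same order. All of these groups exclude Pol II peaks that an OGA peak overlaps. They also differed in spacing. The nearest other Pol II peak was a median of 15355 bp away at the sites and 9465.5 bp with SPT5 and O-GlcNAc. It was 4820 bp away with SPT5 and TRIM28 and 1002 bp with SPT5 alone. The part of spacing was not tested. An OGA peak came within 100 bp of 21 sites (0.428%). The closest gaps were 6 bp at chromosome 12, 52463707 to 52464033, 9 bp at chromosome 17, 61850586 to 61851092, and 11 bp at chromosome 1, 169862455 to 169863112.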

How the data were processed

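ChIP-seq peak lists of 5 targets in BJAB cells were used, 1 list per library, with no pooling stated. Per the labels' protocols, sonicated, formaldehyde-cross-linked chromatin was immunoprecipitated. Per the submitters' processing notes, bcl2fastq 2.17, Trimmomatic 0.30, Bowtie2 2.1.0 and the build hg19 were used. Peak caller, control and cutoff: not given in the sources used here. Each line of the deposited lists gives a score, a fold enrichment as a ratio, p-values and q-values as −log10, and the summit position. The smallest deposited −log10 q was 1.30 to 1.33. Read counts were not used, so depth is unknown.

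Overlaps of at least 1 bp were computed with Python 3.11.15, numpy 2.4.6, pandas 2.3.3 and scipy 1.17.1, and checked with bedtools 2.31.1, which gave the same 4910 peaks. Figures were drawn with matplotlib 3.10.9. The code was tested on simulated data. Where several peaks of a target overlapped, the highest gave the height; summit distances are to the nearest summit of an overlapping peak. Intervals are 95% Wilson intervals for shares and order-statistic intervals for medians. Alternatives were a −log10 q of at least 5, a 50% overlap, summits within 250 bp, merging within 500 bp, shortened lists and sites with exactly 1 overlapping peak of each list.

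The sites, groups and measures were chosen with earlier results of these data known. Sites were named by rule: the 5 highest in Pol II, the 3 highest in each partner, the 3 widest, the longest runs, the 3 fullest windows, and those nearest the edges of the rule. Gene names, start sites, gene lists, motifs and sequences were not analysed here, because the gene tables at hand are for another build than the peaks. Chromosome X was left out by the rule.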

Additional observations from a re-analysis of the deposited data

Results flagged for a closer look

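Chromosome X lies outside the rule and was not part of any comparison above. There 73 of 553 Pol II peaks carried SPT5, TRIM28 and O-GlcNAc and no OGA (13.2%, 95% Wilson interval 10.6% to 16.3%), against 25.4% on chromosomes 1 to 22. Their median Pol II fold enrichment was 7.05 and their median width 621 bp, against 5.01 and 453 bp at the other Pol II peaks of chromosome X. The difference in share between chromosome X and the other chromosomes was not tested.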

How the results depend on the processing

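The number of sites and the summit distances depended on the overlap rule and on list length, and the cause was not tested unless stated. With a −log10 q of at least 5 the sites were 20.1% of Pol II peaks, the differences in median Pol II height and width to other Pol II peaks were 2.09 and 214 bp, the TRIM28 and O-GlcNAc summits lay 136 and 169 bp from Pol II, and chromosome 19 had 20.9%. With a 50% overlap the values were 21.6%, 2.83, 297 bp, 111 and 151 bp and 22.7%, with 113 bp from TRIM28 to O-GlcNAc, a common base at 96.8%, and O-GlcNAc and TRIM28 on the shorter arm at 27.0% and 31.6%. With summits within 250 bp, which by construction removes longer distances, there were 2930 sites (15.2%), the differences were 2.55 and 209 bp, the SPT5, TRIM28 and O-GlcNAc distances were 17, 78 and 134 bp, TRIM28 to O-GlcNAc was 85.5 bp, a common base was found at 97.0%, the same side at 71.3%, TRIM28 on the shorter arm at 37.5% and chromosome 19 at 15.0%. With peaks merged within 500 bp the share was 28.7%, the differences 2.52 and 279 bp, the SPT5 and TRIM28 distances 20 and 151 bp, TRIM28 to O-GlcNAc 125 bp, the common base 95.03%, O-GlcNAc and TRIM28 on the shorter arm 25.7% and 30.6%, and chromosome 19 34.9%. With the Pol II, SPT5 and TRIM28 lists reduced to as many peaks as O-GlcNAc has, which by construction drops weaker peaks, 562 sites were left (6.25%) and the difference in height reversed to −0.285. There the width difference was 112.5 bp, the SPT5, TRIM28 and O-GlcNAc distances were 19, 178 and 171 bp, TRIM28 to O-GlcNAc was 114 bp, the common base 95.02%, the same side 78.8%, O-GlcNAc and TRIM28 on the shorter arm 30.8% and 32.8%, and chromosome 19 5.29%. An alternative chosen after seeing the data, sites with exactly 1 overlapping peak of each list, gave 128 bp for TRIM28, 112 bp for TRIM28 to O-GlcNAc, 78.3% on the same side and 33.01% for TRIM28 on the shorter arm. In every setting the O-GlcNAc summit was farther from Pol II than the SPT5 summit. The order of TRIM28 and O-GlcNAc was less stable. TRIM28 was the farther one with the shortened lists, with overlapping intervals (164 to 196 bp against 164 to 177 bp). It was the nearer one in the other settings. The alternatives on gene start sites were not run. No paired analysis was possible because each target has 1 library. Without replicates or read depths, a missing peak cannot be told apart from one too weak to be called.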
